A study of Mus musculus with 12 samples.

Results

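Macrophages lacking the nuclear receptor ERRα were compared with and without lipopolysaccharide (LPS) on 6 of the 12 arrays of the series. These were the 3 arrays labelled as LPS-treated and the 3 labelled as PBS-treated ERRα-/- bone marrow-derived macrophages. Marrow cells kept in M-CSF, a growth factor for monocytes, become such macrophages, and LPS is a lipid of the outer membrane of Gram-negative bacteria. Both groups came from male C57BL6 mice of 6 to 8 weeks and were cultured with M-CSF for 5 to 7 days. The LPS group received 100 ng/mL LPS and the PBS group its solvent, and the sources used here give no duration of the exposure. The other 6 arrays held ERRα+/+ cells under the same treatments (3 arrays each). How Esrra, the gene of ERRα, was deleted and in which cells is not stated in the labels. Nor do they say whether replicates came from separate mice or cultures, so p-values measure only the spread between these samples, which may be technical.

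LPS is bound by CD14 and MD-2 and sensed by TLR4. The adaptor MyD88 then activates NF-κB and MAP kinases, which switch on inflammatory cytokines together with inhibitors that later restrain them. A second adaptor route leads to interferon β, which acts back on the cell through JAK kinases to induce antiviral genes. ERRα is best known as an activator of genes for mitochondrial respiration and fatty acid oxidation.

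Levels are log2 processed signals relative to the 75th percentile of the array's spots, so a level of 0 lies at that percentile, and levels of different genes cannot be ranked against each other. List medians are of fitted differences, which are no bounds for members below background in a group. Differences are LPS minus PBS ± standard error from limma with 3 arrays per group. A gene was called risen or fallen at a Benjamini-Hochberg adjusted p under 0.05 over 13115 genes. Between 45.3% and 56.7% of the probes of each array exceeded background clearly, and no spot was saturated. The median coefficient of variation of repeated spots was 11.6% and 7.83% on ERRα+/+ PBS replicates 2 and 3 and 3.33% to 4.23% on the other 10 arrays. Replicate 1 of every group lay on slide 1 and replicates 2 and 3 on slide 2.

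Macrophage markers were detected, but so were most tested markers of other cells. All 19 tested genes of 20 macrophage markers were above background on each of the 6 ERRα-/- arrays. So were 11 of 13 neutrophil, 6 of 6 mast cell and 9 of 9 osteoclast markers, and 11506 of the 13115 tested genes. A gene was tested only if detected on all arrays of a group, so detection is no check of the macrophage label. The receptor gene of M-CSF, Csf1r, lay between 8.66 and 9.11 under PBS and between 8.94 and 9.09 under LPS. Esrra itself (chr19:6910977-6922048, GRCm38.p6) was detected on all 6 arrays. It read 2.28, 0.03 and -0.06 in PBS replicates 1 to 3, and 4.20, 3.69 and 3.61 under LPS. PBS replicate 1 stood well above its 2 partners, and the groups did not overlap. In ERRα+/+ cells the levels were 4.34, 4.19 and 4.49 under PBS and 5.66, 6.03 and 6.14 under LPS. The Esrra signal of ERRα-/- cells rose by 3.08 ± 0.51 with LPS (adjusted p = 0.000750). Whether the probe lies inside the deleted part is not known from the sources used here, so this signal is no check of the genotype.

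The strongest rises can be set beside the sequence in front of their genes. RefSeq windows (GRCm38.p6) of 250 bases before and 50 after the start site were matched for 10522 of the tested genes, 13314 promoters in all. They were searched on both strands for a κB-like run of 10 bases, as NF-κB prefers, which was GGGA, any 4 bases and CC, or GGG, any 3 bases and TTCC. They were also searched for an ISRE-like run of 10 bases, GAAA, any 2 bases and GAAA, as interferon regulatory factors prefer. The κB patterns overlap, since a run can match both of them. Shown are the 250 bases before the start of the 3 genes with the largest rises among named genes that held each run, 5′ to 3′ on the strand of the gene, with the runs of the kind named for each set of 3 in capitals and any run of the other kind left in lower case. The first 3 hold κB-like runs and code for the cytokine interleukin-6, the neutrophil-attracting chemokine CXCL3 and the enzyme that makes itaconate. They lie at chr5:30012864-30013113 (plus strand), chr5:90785851-90786100 (plus strand) and chr14:103046762-103047011 (plus strand).
Il6: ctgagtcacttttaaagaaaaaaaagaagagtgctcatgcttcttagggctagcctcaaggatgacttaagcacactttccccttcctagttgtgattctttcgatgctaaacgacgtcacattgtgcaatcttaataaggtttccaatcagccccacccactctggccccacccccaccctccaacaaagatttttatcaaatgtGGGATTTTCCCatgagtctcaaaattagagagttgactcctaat
Cxcl3: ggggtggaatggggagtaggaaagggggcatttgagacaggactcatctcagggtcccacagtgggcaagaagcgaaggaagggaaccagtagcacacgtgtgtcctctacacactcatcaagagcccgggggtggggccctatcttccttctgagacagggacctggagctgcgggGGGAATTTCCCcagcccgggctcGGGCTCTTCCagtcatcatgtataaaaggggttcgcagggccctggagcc
Acod1: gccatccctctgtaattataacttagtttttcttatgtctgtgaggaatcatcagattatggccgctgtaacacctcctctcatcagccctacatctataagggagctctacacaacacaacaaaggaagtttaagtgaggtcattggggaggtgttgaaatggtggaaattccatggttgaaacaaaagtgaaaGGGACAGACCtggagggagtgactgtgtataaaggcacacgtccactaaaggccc
The other 3 hold ISRE-like runs and code for the vasoconstrictor endothelin-1, the acute-phase protein serum amyloid A3 and a guanylate-binding protein of the interferon response. They lie at chr13:42301226-42301475 (plus strand), chr7:46715677-46715926 (minus strand) and chr3:142496684-142496933 (plus strand).
Edn1: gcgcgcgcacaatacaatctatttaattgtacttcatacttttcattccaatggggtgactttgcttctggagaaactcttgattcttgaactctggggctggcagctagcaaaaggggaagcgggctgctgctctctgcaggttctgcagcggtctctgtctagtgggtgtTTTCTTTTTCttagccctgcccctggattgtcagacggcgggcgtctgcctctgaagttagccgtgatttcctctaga
Saa3: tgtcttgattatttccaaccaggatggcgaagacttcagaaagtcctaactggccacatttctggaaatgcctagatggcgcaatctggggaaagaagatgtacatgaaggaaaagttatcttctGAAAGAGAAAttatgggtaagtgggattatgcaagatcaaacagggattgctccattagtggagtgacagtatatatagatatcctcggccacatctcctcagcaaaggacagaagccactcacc
Gbp5: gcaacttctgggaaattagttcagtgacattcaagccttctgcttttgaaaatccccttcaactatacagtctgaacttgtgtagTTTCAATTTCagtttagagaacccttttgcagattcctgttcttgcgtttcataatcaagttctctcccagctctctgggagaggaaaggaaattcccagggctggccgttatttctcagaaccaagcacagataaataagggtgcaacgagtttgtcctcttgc

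The κB-like run of Il6 starts 44 bases before the start site, those of Cxcl3 73 and 50 bases before it, and that of Acod1 55 bases before it. In Il6 and in the upstream run of Cxcl3 both strands match, offset by 1 base. The ISRE-like runs start 78 bases before the start site in Edn1, 125 in Saa3 and 165 in Gbp5. A κB-like run was present in 7558 of all 32851 promoters of the table and in 28.2% of those of tested genes. The share was 29.9% for risen and 28.1% for fallen genes, and 40.4% (59 of 146) for risen members of the inflammation lists described below. An ISRE-like run was present in 3.44% of all promoters, 3.37% of those of tested genes, 5.29% for risen and 2.35% for fallen genes. It was present in 40.7% (24 of 59) of the promoters of risen members of the interferon lists, whose κB-like share was 28.8%. These shares are descriptions: a match is not a bound site. No share was taken for list members that did not rise. The shares of the lists therefore cannot separate list membership from the response to LPS.

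**Figure D1:**
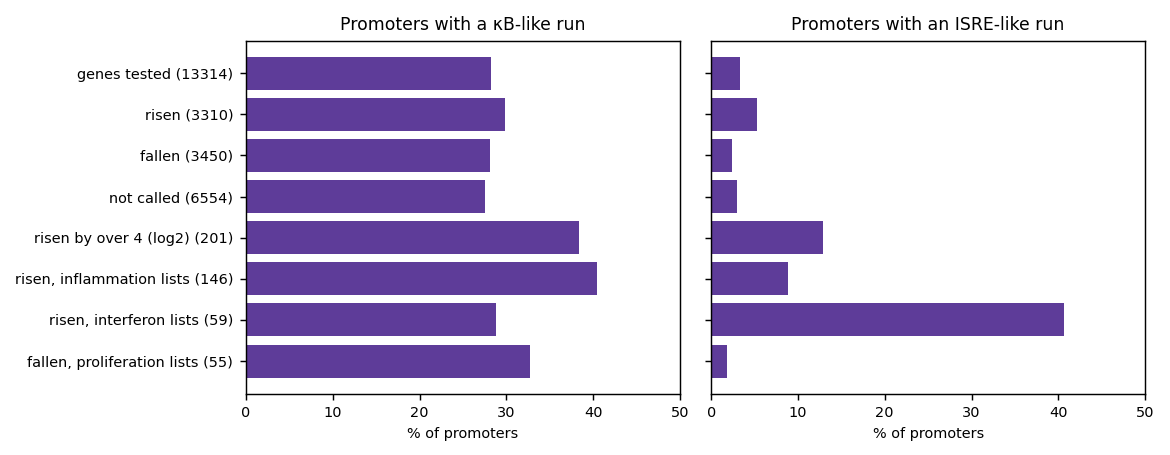
Share of promoters (percent, from 0) with a κB-like run (left) or an ISRE-like run (right) by the response of their genes to LPS in ERRα-/- macrophages, with the number of promoters in brackets. The ISRE-like share was 3.37% for all tested genes, 5.29% for all risen genes and 40.7% for risen genes of the interferon lists. No share was taken for list members that did not rise.

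The response was broad. With LPS, 3266 genes rose (24.9% of those tested) and 3358 fell (25.6%), so 50.5% were called. The median difference of all tested genes was 0.0393, and it became -0.151 with quantile normalization, -0.0323 with median scaling and 0.0801 with normexp background correction. Of the called genes 49.3% had risen, against 40.0% with quantile normalization, so the balance of rises and falls rests on the scaling. In 59.6% of the tested genes the 3 LPS and 3 PBS values did not overlap, with LPS higher in 29.7% and lower in 29.9%. Among the 6624 called genes 6587 moved the same way in 3 of 3 same-numbered pairs. The calls were made on these same arrays, so this count follows largely from the selection and is no independent support. The largest changes were rises: 205 genes rose by more than 4 and 60 fell by more than 4, and 103 against 9 passed a size of 5.

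Replicate 1 differed from the others in the size of the response. In ERRα-/- cells slide 1 holds only replicate 1, so slide and sample cannot be told apart. The called genes were chosen by a fit to which slide 2 gives replicates 2 and 3. Over the called genes the median size was 0.905 for replicate 1 on slide 1, and 1.44 and 1.42 for replicates 2 and 3 on slide 2. Of the 6624 called genes 5602 moved less on slide 1 than on average on slide 2. Slide 2 alone called 4896 rises and 4756 falls. With the replicate number as a block 4206 genes rose and 4133 fell. PBS replicate 1 also carried more signal of several inflammatory genes than its partners, as its values for Acod1, Saa3 and Tnf below show, and without it 2993 genes rose and 3224 fell. Without ERRα-/- LPS replicate 1, the only LPS array of these cells on slide 1, 3625 rose and 3565 fell. All 243 called genes among the 291 named by rule were called within slide 2 and with the replicate block. Both fits reuse arrays of the main fit and most of these genes were named for large differences, so this is no independent support.

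**Figure D2:**
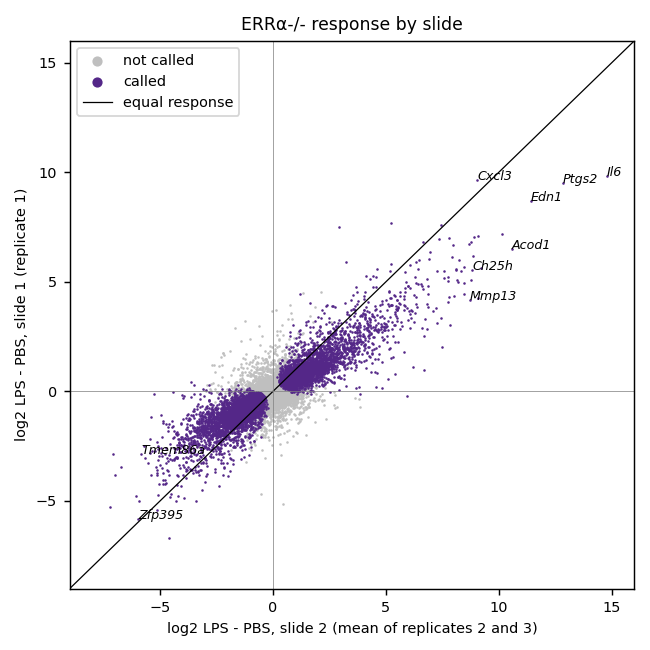
Each point is a gene, with its LPS minus PBS difference (log2) on slide 2 (mean of replicates 2 and 3) on the horizontal axis and on slide 1 (replicate 1) on the vertical axis. Called genes are purple and the line marks equal response. Among the called genes 5602 of 6624 moved less on slide 1.

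The 4 largest rises among genes with no PBS array above background were those of Il6, Ptgs2, Edn1 and Cxcl3. Their folds are lower bounds, set against the higher of the dim signal and the lowest signal well above background on each PBS array. Il6 read -5.27, -7.52 and -6.14 under PBS and 4.56, 7.87 and 8.01 under LPS. It was thus at least 4236-fold higher (adjusted p = 1.07e-05), with the slide 1 array lowest under LPS. Ptgs2, the inducible cyclooxygenase of prostaglandin synthesis, read -5.38, -5.63 and -5.89 under PBS and 4.12, 6.98 and 7.16 under LPS, at least 2541-fold higher (adjusted p = 5.66e-06). Edn1 was at least 1076-fold higher (adjusted p = 7.32e-05), from between -5.72 and -5.28 to between 2.97 and 5.97. Cxcl3 was at least 267-fold higher (adjusted p = 3.86e-06), and here the slide 1 array read highest under LPS, at 3.88 against 2.29 and 2.31. A further 6 genes rose from below background on every PBS array by bounds of 72.5 to 192-fold. They included the cytokine gene Il19, the aggrecanase gene Adamts4, the pentraxin gene Ptx3 and the arginine transporter gene Slc7a2.

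Among genes measured on all 6 arrays the itaconate enzyme gene Acod1 rose most. It read 2.91, -0.70 and -0.37 under PBS and 9.40, 10.02 and 10.04 under LPS, a difference of 9.20 ± 0.75 (adjusted p = 1.21e-05). The neutrophil-attracting chemokine gene Cxcl2 read -2.50, -3.23 and -2.88 under PBS and 4.59, 5.93 and 6.15 under LPS, a rise of 8.43 ± 0.54. Gfi1, a transcriptional repressor of haematopoiesis, read -1.89, -2.92 and -2.70 and then 4.94, 5.89 and 6.02, a rise of 8.12 ± 0.48. In all 3 the groups lay far apart, and PBS replicate 1 was the highest PBS array. Saa3 read 3.85, 0.78 and 1.05 under PBS and 9.48, 10.15 and 10.10 under LPS, a rise of 8.02 ± 0.73. Tnf, an early cytokine of inflammation, read 2.38, 0.34 and 0.36 under PBS and 7.60, 8.13 and 8.09 under LPS, a rise of 6.91 ± 0.51. For Saa3 and Tnf the replicate 1 differences were the smallest of the 3, with PBS replicate 1 well above the other PBS arrays. The cholesterol 25-hydroxylase gene Ch25h rose by 7.72 ± 1.02 and the early activation marker gene Cd69 by 7.52 ± 0.51. Saa1 rose by 7.54, but its signal cannot be separated from near-identical Saa copies.

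The largest fall among genes measured on all 6 arrays was that of Slc46a3, a lysosomal transporter gene. It read 4.48, 5.10 and 5.17 under PBS and 0.64, -0.20 and -0.34 under LPS, a change of -4.88 ± 0.40 (adjusted p = 1.37e-05). Tmem86a, which encodes a lysoplasmalogenase, read 4.75, 4.24 and 4.23 under PBS and 1.89, -1.56 and -1.65 under LPS, a change of -4.85 ± 0.99. Its LPS replicate 1 stayed far above the other LPS arrays, yet below every PBS array. The sialyltransferase gene St6gal1 changed by -4.60 ± 0.30 and the glycosyltransferase gene Gcnt1 by -4.59 ± 0.21. The stress-inducible gene Sesn1 changed by -4.64 ± 0.71, the calcium-regulated transcription factor gene Nfatc2 by -4.56 ± 0.67, and Angptl4, an inhibitor of lipoprotein lipase, by -4.53 ± 0.23. Another 5 falls ended below background on every LPS array and are bounds of 13.1 to 22.6-fold. They were Zfp395, Smpd3 (a neutral sphingomyelinase gene), Lpin1 (a phosphatidate phosphatase gene), the Polycomb gene Cbx8 and the arrestin-domain gene Arrdc3.

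**Figure D3:**
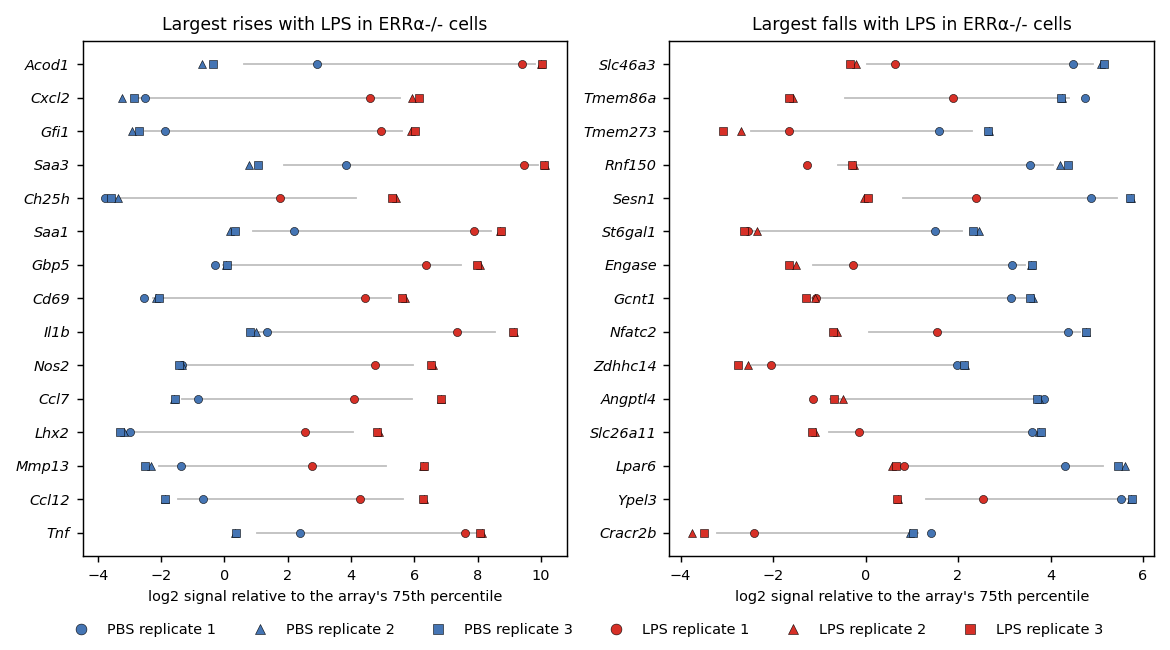
Level of each gene on each of the 6 ERRα-/- arrays (log2, with 0 at the 75th percentile of its array) for the 15 largest rises (left) and the 15 largest falls (right) among called genes above background on all 6 arrays. Blue marks PBS, red marks LPS, marker shape the replicate, and the grey line joins the group means. In each gene shown the LPS and PBS arrays do not overlap.

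At the entry of the pathway most genes of the receptor complex and its adaptors rose. Of 27 tested genes of the TLR4 receptor complex and its adaptors 17 rose and 5 fell, where 24.9% and 25.6% of all genes did, with a median of 0.99. The adaptor gene Myd88 read 4.38, 4.32 and 4.23 under PBS and 6.22, 6.85 and 6.79 under LPS, a rise of 2.31 ± 0.20. The LPS co-receptor gene Cd14 rose by 1.78 ± 0.35 and Irak3, which encodes an inhibitory member of the IRAK kinases, by 2.18 ± 0.32. The MD-2 gene Ly96 differed by 1.37 ± 0.54 and was not called (adjusted p = 0.0565). It was called with the replicate block (adjusted p = 0.00320). Of 22 other pattern receptors 13 rose and 1 fell, with a median of 1.84. The lectin receptor gene Clec4e, which senses mycobacterial glycolipids, rose by 6.27 ± 0.32. The cytosolic sensor genes Ifih1 and Nod2 each rose by 4.16, and the inflammasome sensor gene Nlrp3 by 4.08 ± 0.53.

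NF-κB genes and their inhibitors rose together. Of 24 tested 19 rose and 1 fell, with a median of 2.29. Nfkbia, the gene of the first IκB inhibitor, read 5.35, 5.39 and 5.47 under PBS and 8.29, 9.31 and 9.28 under LPS, a rise of 3.56 ± 0.40. Tnfaip3, which encodes the ubiquitin-editing inhibitor A20, read 2.74, 3.08 and 3.02 and then 5.96, 8.13 and 8.13, a rise of 4.46 ± 0.61. Both genes moved less on slide 1. The signalling adaptor gene Traf1 rose by 6.02 ± 0.37 and the subunit gene Nfkb2 by 3.37 ± 0.39, while the IκB-like gene Bcl3 differed by 1.55 ± 0.60 (adjusted p = 0.0528, and 0.00222 with the replicate block). Of 26 immediate early and AP-1 genes 15 rose and 5 fell. Those of the AP-1 partners Batf2 (4.82 ± 0.29), Maff (4.77 ± 0.35) and Batf (3.88 ± 0.49) rose most, and Batf3 fell by 1.92. Of 17 MAP kinase phosphatase genes and related kinases 8 rose and 3 fell. Dusp2, whose product inactivates MAP kinases in the nucleus, rose by 5.56 ± 0.56 and Dusp16 by 4.28 ± 0.50.

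Further inhibitors of cytokine signalling followed. Of 27 such genes 17 rose and 6 fell, with a median of 1.54. Socs3, which blocks signalling of the interleukin-6 receptor, read 1.64, 1.01 and 1.14 under PBS and 6.66, 8.72 and 8.90 under LPS, a rise of 6.83 ± 0.72. Socs1, which restrains interferon signalling, rose by 5.17 ± 0.42 and Il1rn, the gene of the interleukin-1 receptor antagonist, by 5.67 ± 1.32. Arid5a, whose product stabilises interleukin-6 mRNA and so does not brake it, rose by 3.70 ± 0.30.

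Most genes of secreted mediators rose. Of 32 interleukins and growth factors 26 rose and 1 fell, with a median of 4.15. Il1b, the pyrogen processed by the inflammasome, read 1.34, 0.99 and 0.79 under PBS and 7.34, 9.14 and 9.13 under LPS, a rise of 7.50 ± 0.95. Csf3, the growth factor gene of neutrophils, was above background on no PBS array and was at least 47.9-fold higher with LPS. Of 14 CC and other chemokines 12 rose and none fell, with a median of 4.02. The monocyte-attracting chemokine genes Ccl7 and Ccl12 rose by 7.28 ± 1.07 and 7.11 ± 0.88, and Ccl5 by 5.34 ± 0.44. Of 11 CXC chemokines 10 rose and none fell. With quantile normalization 7 rose and with median scaling 8, and none fell in either. Cxcl10, an interferon-induced attractant of T cells, read 2.13, 3.03 and 2.91 under PBS and 8.94, 9.64 and 9.62 under LPS, a rise of 6.71 ± 0.85. Cxcl14 was the member not called in the main fit, at 0.04 with an adjusted p of 0.954. Its sign turned with the scaling (-0.35 with quantile normalization).

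Receptors for cytokines split. Of 29 tested 12 rose and 6 fell, and the median of 0.40 became -0.07 with quantile normalization. The TNF receptor gene Tnfrsf1b rose by 2.53 ± 0.47 and the oncostatin M receptor gene Osmr by 2.65 ± 0.45 (1 of 3 PBS arrays above background). Lifr, the receptor gene of leukaemia inhibitory factor, read -0.50, 1.02 and 0.99 under PBS and -3.27, -3.43 and -3.24 under LPS, a change of -3.82 ± 0.50. The receptor gene of interleukin-6, Il6ra, changed by -2.36 ± 0.27, opposite to its ligand. The G protein-coupled receptors split as well, with 13 risen and 9 fallen of 32 and a median of -0.03 that turned to 0.23 with normexp. Gpr84, a receptor for medium-chain fatty acids, rose by 6.76 ± 0.36 and the adenosine receptor gene Adora2a by 6.65 ± 0.46, whereas the chemokine receptor gene Cxcr4 changed by -4.15 ± 0.35.

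Interferon-stimulated genes moved in 1 direction. Of 37 antiviral interferon-stimulated genes 36 rose and none fell, with a median of 2.75, and the remaining gene, Trim25, differed by 0.76 (adjusted p = 0.0838, and 0.00153 with the replicate block). With quantile normalization 33 rose and none fell. All 15 tested guanylate-binding proteins and immunity-related GTPases, which attack vacuoles of intracellular microbes, rose by 2.45 to 7.53. Ifnb1, the interferon β gene, read -5.94, -6.16 and -5.90 under PBS, all below background, and 0.06, 0.40 and 0.45 under LPS. It was at least 46.5-fold higher (adjusted p = 3.31e-07), and the slide 1 array lay close to the other LPS arrays. Of 19 genes of interferon β, interferon regulatory factors, STAT factors and JAK kinases 12 rose and 2 fell. Irf7, the factor that amplifies interferon production, read 3.89, 1.16 and 1.15 under PBS and 5.20, 5.65 and 5.45 under LPS, a rise of 3.37 ± 0.69, with PBS replicate 1 far above its partners. Rsad2, which encodes the antiviral enzyme viperin, read 3.31, 2.87 and 2.69 and then 7.97, 9.47 and 9.40, a rise of 5.99 ± 0.45. Gbp5 read -0.30, 0.04 and 0.09 and then 6.37, 8.09 and 7.98, a rise of 7.53 ± 0.82. Several guanylate-binding proteins, Slfn and Tgtp genes have near-identical copies, so the values of single members are uncertain. Antigen presentation on MHC class I followed: of 20 genes 15 rose and none fell, led by the class I transactivator gene Nlrc5 (3.66 ± 0.45) and the peptide transporter gene Tap1 (3.05 ± 0.45).

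**Figure D4:**
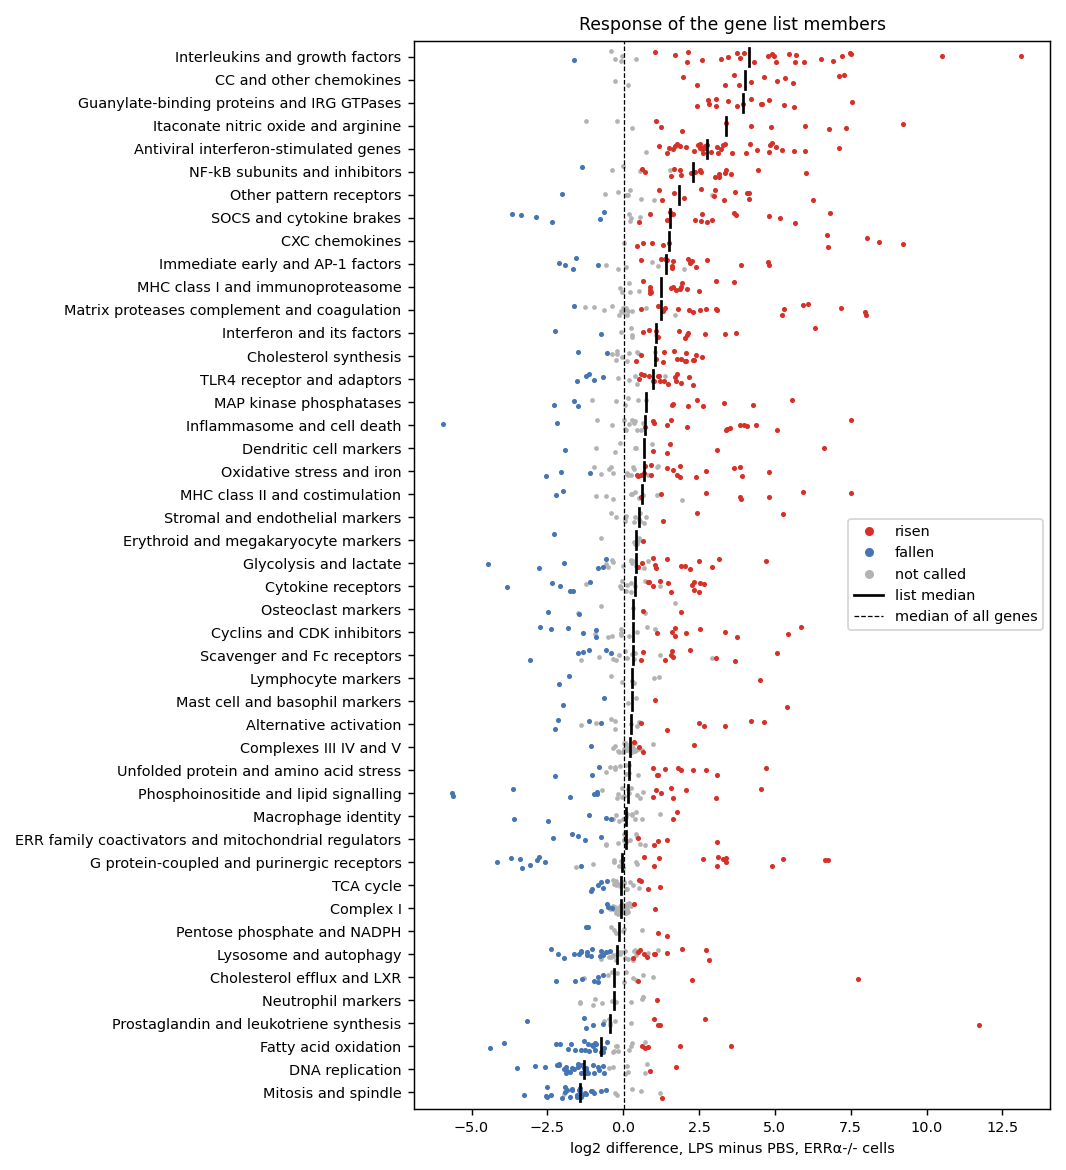
Difference of each tested member of the 46 gene lists (log2, LPS minus PBS in ERRα-/- macrophages), 1 point per gene, in red for risen, blue for fallen and grey for genes not called. The black bar is the list median, the dashed line the median of all 13115 genes, and the vertical scatter within a list has no meaning. The medians of interleukins and growth factors (4.15) and of DNA replication (-1.28) lie far to either side of the median of all genes.

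Effector enzymes rose with the mediators. Of 13 genes of itaconate, nitric oxide and arginine metabolism 10 rose and none fell (1 with the replicate block), with a median of 3.40. The inducible nitric oxide synthase gene Nos2 read -1.35, -1.35 and -1.42 under PBS and 4.76, 6.58 and 6.54 under LPS, a rise of 7.33 ± 0.78. Ass1, which regenerates its substrate arginine, rose by 4.87 ± 0.48, and Slc7a11, the cystine importer gene, by 6.00 ± 0.83 (1 of 3 PBS arrays above background). Among 16 prostaglandin and leukotriene genes 5 rose and 5 fell, shares not far above the 24.9% and 25.6% of all genes. Ptgs2 and the phospholipase gene Pla2g4a (2.69 ± 0.63), whose enzyme releases arachidonate, rose, while the constitutive cyclooxygenase gene Ptgs1 differed by -0.63 (adjusted p = 0.467). Hpgd, whose enzyme degrades prostaglandins, read 1.95, 3.55 and 3.39 and then -1.28, 0.30 and 0.41, a change of -3.16 ± 0.68. Of 29 inflammasome and cell death genes 15 rose and 2 fell. The caspase-8 inhibitor gene Cflar rose by 5.06 ± 0.53 and the pro-apoptotic gene Bmf changed by -5.94 ± 0.82 (2 of 3 LPS arrays above background). Of 34 matrix protease, complement and coagulation genes 18 rose and 1 fell (2 with the replicate block). The rises included those of the plasminogen activator inhibitor Serpinb2 (7.97 ± 0.67, 2 of 3 PBS arrays above background) and of collagenase Mmp13 (7.19 ± 1.19).

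Glycolysis and lactate genes moved both ways. Of 31 tested 13 rose and 6 fell, with a median of 0.41, which became 0.06 with quantile normalization (10 rises and 7 falls). The glucose transporter gene Slc2a1 read 2.30, 2.43 and 2.34 under PBS and 4.66, 5.63 and 5.54 under LPS, a rise of 2.92 ± 0.30, and the related gene Slc2a6 rose by 4.70 ± 0.32. The transporter gene Slc2a3 differed by -0.58 ± 0.23 and was not called (adjusted p = 0.0558, and 0.0134 with the replicate block); it was named after its value was seen. Pdk2, whose kinase inhibits pyruvate dehydrogenase, changed by -4.45 ± 0.54, with 1 of 3 LPS arrays above background. Of 10 pentose phosphate and NADPH genes 2 rose and 2 fell, shares (20% each) not far below those of all genes.

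Mitochondrial genes, the known targets of ERRα, moved little beside these. Among 25 genes of the tricarboxylic acid cycle 4 had risen and 6 fallen, with a median of -0.06, and quantile normalization gave 2 rises and 11 falls. The dehydrogenase subunit gene Dld rose by 1.20 ± 0.30 and the mitochondrial isocitrate dehydrogenase gene Idh2 changed by -1.07 ± 0.26. Of 37 complex I genes 2 rose and 4 fell, with a median of -0.09 and with differences between -0.72 and 1.05. Quantile normalization turned this into 1 rise and 24 falls (median -0.55), and the replicate block into 3 rises and 7 falls. Of 39 genes of complexes III, IV and V with cytochrome c 4 rose and 1 fell, with a median of 0.23. Here quantile normalization gave 1 rise and 13 falls with a median of -0.25, and the replicate block 14 rises and 2 falls, so no direction of the respiratory chain holds across these settings. The 2 called members that moved by more than 1 were Cycs and Surf1. Cycs, the cytochrome c gene, read 4.80, 4.55 and 4.56 under PBS and 6.36, 7.24 and 7.28 under LPS, a rise of 2.32 ± 0.32, and the assembly factor gene Surf1 changed by -1.08 ± 0.20. Cox7a2 (0.51) and Cox5b (0.36), called risen, turned to -0.03 and -0.20 with quantile normalization and were not called with median scaling (adjusted p = 0.0756 and 0.219). Cox5b was no longer called without PBS replicate 2 (adjusted p = 0.0955), without PBS replicate 3 (0.0854) and without LPS replicate 2 (0.0925) or 3 (0.0630).

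Genes of fatty acid oxidation fell on balance. Of 35 genes 21 fell and 5 rose, with a median of -0.72 (-1.05 with quantile normalization). Acot1, a cytosolic acyl-CoA thioesterase gene, read 2.31, 2.12 and 2.03 under PBS and -1.49, -1.78 and -2.05 under LPS, a change of -3.93 ± 0.25. The peroxisomal oxidase gene Acox3 read 4.20, 3.72 and 3.74 and then 2.11, 1.75 and 1.56, a change of -2.08 ± 0.29. Acot2 and the peroxisomal gene Ehhadh fell to below background, by at least 8.13-fold and 3.90-fold. The exception in size was Acsl1, whose enzyme activates long-chain fatty acids at the start of both oxidation and lipid synthesis, with 2.75, 3.11 and 3.05 under PBS and 6.47, 6.53 and 6.53 under LPS, a rise of 3.54 ± 0.18. Of 22 genes of the ERR family, its coactivators and mitochondrial regulators, Esrra included, 5 rose and 5 fell. These shares (22.7% each) were near the 24.9% and 25.6% of all genes. With the replicate block 9 rose and 6 fell. The coactivator gene Ppargc1b rose by 1.43 ± 0.36. The mitochondrial deacylase genes Sirt3 and Sirt5 changed by -2.31 ± 0.26 and -1.49 ± 0.24.

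Sterol genes rose on the side of synthesis. Of 27 cholesterol synthesis genes 15 rose and 2 fell, with a median of 1.06. Hsd17b7, whose enzyme acts late in the pathway, read -1.19, -1.19 and -1.09 under PBS and 1.36, 1.46 and 1.51 under LPS, a rise of 2.60 ± 0.16. The isomerase gene Idi1 rose by 2.41 ± 0.35. Of 20 genes of cholesterol efflux and LXR signalling 3 rose and 7 fell, and 6 rose and 9 fell with the replicate block. Ch25h read -3.79, -3.35 and -3.58 under PBS and 1.75, 5.41 and 5.29 under LPS, whereas the sterol 27-hydroxylase gene Cyp27a1 changed by -2.22 ± 0.17 and the cholesterol-esterifying enzyme gene Soat1 by -1.59 ± 0.21.

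Proliferation genes fell. Of 39 DNA replication genes 30 fell and 2 rose, with a median of -1.28. Of 33 mitosis and spindle genes 26 fell and 1 rose (27 and 3 with the replicate block), with a median of -1.41. Rrm2, the nucleotide-supplying ribonucleotide reductase gene, read 2.52, 2.44 and 2.50 under PBS and 0.68, -0.49 and -0.44 under LPS, a change of -2.57 ± 0.28. The kinesin gene Kif23 read -0.10, 0.30 and 0.32 and then -2.47, -3.56 and -3.22, a change of -3.26 ± 0.34. The centromeric histone gene Cenpa changed by -2.50 ± 0.20 and the replication factor gene E2f2 by -3.49 ± 0.54. Slide 1 fell less in Rrm2, Kif23 and E2f2. Cyclins and cyclin kinase inhibitors, in contrast, moved both ways, with 10 risen and 6 fallen of 26. The inhibitor gene Cdkn1a, which encodes p21, read 3.28, 2.97 and 3.00 under PBS and 6.78, 6.87 and 6.88 under LPS, a rise of 3.76 ± 0.14. The G1 cyclin gene Ccnd2 rose too, by 5.88 ± 1.12, while the inhibitor gene Cdkn2c changed by -2.76 ± 0.30.

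Surface molecules of T cell contact rose in part. Of 20 MHC class II and costimulation genes 8 rose and 2 fell. Cd40, the receptor of the T cell help signal, read 1.60, 1.85 and 1.78 under PBS and 6.83, 8.15 and 8.07 under LPS, a rise of 5.94 ± 0.52. Cd274, the gene of the inhibitory ligand PD-L1, rose by 3.84 ± 0.27. Ciita, the master regulator of class II genes, changed by -2.21 ± 0.52 and was named after its value was seen. Of 28 scavenger and Fc receptors 10 rose and 6 fell, with the inhibitory Fc receptor gene Fcgr2b at 3.06 ± 0.38 and the activating receptor gene Cd300lb at -3.06 ± 0.69. Genes of alternative activation were 7 risen and 4 fallen of 19, with a median of 0.26 that became -0.28 with quantile normalization. Its rises included those of the chemokine genes Ccl22 and Ccl17, both from below background, by at least 7.46-fold and 13.2-fold.

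Of 47 lysosome and autophagy genes 16 fell and 11 rose, shares near those of all genes, with a median of -0.21. With quantile normalization 23 fell and 6 rose, with a median of -0.59. Tfeb, the activator of lysosome genes, changed by -2.38 ± 0.58 and the autophagy kinase gene Ulk1 by -2.15 ± 0.43, while the related factor gene Tfec rose by 2.74 ± 0.18. Of 35 oxidative stress and iron genes 18 rose and 3 fell (19 and 5 with the replicate block, 11 and 6 with quantile normalization). Sod2, the mitochondrial superoxide dismutase gene, read 5.85, 5.51 and 5.55 under PBS and 9.03, 9.81 and 9.83 under LPS, a rise of 3.92 ± 0.25. Lcn2, whose protein captures bacterial iron carriers, rose by 3.85 ± 0.50. Of 23 unfolded protein and amino acid stress genes 10 rose and 3 fell (10 and 5 with the replicate block), and the median of 0.20 became -0.02 with quantile normalization. Chac1 and Asns, targets of the amino acid stress factor ATF4, rose by 4.72 ± 0.72 and 2.71 ± 0.54, whereas the sensor kinase gene Eif2ak3 changed by -2.25 ± 0.34. Of 27 phosphoinositide and lipid signalling genes 8 rose (29.6%) and 7 fell (25.9%), shares near those of all genes. Within it the exchange factors for Ras parted: Rasgrp1 rose by 4.56 ± 0.61, and Rasgrp3 changed by -5.64 ± 0.66 with 2 of 3 LPS arrays above background.

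Few identity genes of macrophages rose, and the share that fell was near that of all genes. Of the 19 tested 2 rose (10.5%, Cd14 and Spi1) and 5 fell (26.3%), where 24.9% and 25.6% of all genes did. With the replicate block 4 rose. The list median of 0.09 became -0.35 with quantile normalization. The lineage factor gene Spi1, which encodes PU.1, read 1.51, 1.17 and 1.19 under PBS and 2.71, 3.05 and 2.99 under LPS, a rise of 1.63 ± 0.21. The myeloid factor gene Cebpa changed by -3.59 ± 0.61. The mature macrophage surface marker gene Adgre1 read 7.51, 8.12 and 8.24 under PBS and 8.01, 8.56 and 8.53 under LPS and was not called (adjusted p = 0.413). Summed over the tested members with the scaling of the main fit, macrophage markers lay between 11.51 and 11.62 (log2) under PBS and between 11.68 and 11.84 under LPS. No sum was taken with quantile normalization.

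Markers of other cells were measured on the same arrays. Of 13 tested neutrophil markers 1 rose and none fell (2 with the replicate block). The rise was that of the antimicrobial peptide gene Camp (1.13, adjusted p = 0.0465), which was no longer called with any 1 of the 6 ERRα-/- arrays left out (adjusted p from 0.0550 to 0.149) or with quantile normalization (0.141). The list median was -0.31, and slide 2 alone called 4 rises and 7 falls. The summed neutrophil level lay between 8.39 and 8.72 under PBS and between 9.001 and 9.144 under LPS, and the defining marker gene Ly6g was not analysed here. All such sums add linear signals, so they follow their brightest members and need not move as most members do. Of 12 dendritic cell markers 5 rose and 1 fell, with summed levels of 8.27 to 8.34 under PBS and 8.73 to 9.29 under LPS. Among them Zbtb46, a factor of the dendritic lineage, read -4.85, -5.23 and -6.17 and then 1.18, 1.31 and 1.11, a rise of 6.61 ± 0.34 with 1 of 3 PBS arrays above background, while Xcr1 did not pass the filter and Flt3 differed by -0.12 (adjusted p = 0.884). Of 9 tested lymphocyte markers 1 rose (2 with the replicate block), the kinase gene Lck (4.52 ± 0.97), and 2 fell, while 7 of the 16 listed, Cd3g, Cd8a, Cd79a and Pax5 among them, did not pass the filter. Of 6 tested mast cell markers 2 rose and 2 fell. The histidine decarboxylase gene Hdc rose by 5.39 ± 0.80, and the mast cell genes Mcpt4, Cma1, Fcer1a and Ms4a2 did not pass the filter. Of 15 stromal markers 3 rose (5 with the replicate block) and none fell, with the growth factor receptor gene Pdgfrb at 5.27 ± 0.47. In the erythroid and megakaryocyte list of 8 tested genes 1 rose and the erythropoietin receptor gene Epor fell (-2.27 ± 0.28), with 2 risen and 2 fallen under the replicate block. Among 9 osteoclast markers 2 rose and 2 fell, shares (22.2% each) near those of all genes, with Nfatc1 (-2.49 ± 0.33) among the falls. Summed levels under PBS and LPS were 4.46 to 4.56 and 4.69 to 4.93 for lymphocyte, 1.67 to 2.06 and 3.67 to 5.61 for mast cell, and 5.01 to 5.17 and 5.24 to 5.78 for stromal markers. They were 6.02 to 6.09 and 6.53 to 6.63 for erythroid and 6.42 to 6.88 and 6.64 to 7.82 for osteoclast markers. With the scaling of the main fit every sum except that of osteoclast markers, the macrophage sum included, was thus higher on each LPS array than on any PBS array. The sums were taken with this scaling only. Quantile normalization moved the macrophage list median from 0.09 to -0.35. Whether the order of the sums holds with another scaling was not tested. The part of other cell types in the response was not tested, and in RNA from whole cultures fewer cells of a type and less RNA per cell cannot be told apart.

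The response was last set against that of ERRα+/+ macrophages, where 2862 genes rose (21.8%) and 3166 fell (24.1%). Of the ERRα-/- rises 77.2% were also called rises in ERRα+/+ cells, and 88.1% of the ERRα+/+ rises were called in ERRα-/- cells. The shares for falls were 84.1% and 89.2%. Only Wtip was called in opposite directions. Its difference was -0.47 without ERRα (adjusted p = 0.0476, and up to 0.141 with 1 array left out) and 0.52 with ERRα (adjusted p = 0.0358). A different call in the 2 genotypes does not show that their responses differ, so the difference itself was tested as an interaction. It called 0 genes (limma), while 288 had an unadjusted p under 0.05 and the smallest adjusted p was 0.578. Normexp background correction called 1 gene, Cxcl1, with an interaction of -2.99 (limma, adjusted p = 0.0456). In the main fit, which did not call it, Cxcl1 rose by 8.02 ± 0.35 in ERRα-/- cells and by 9.50 ± 0.35 in ERRα+/+ cells. It was above background on 1 of 3 ERRα-/- PBS arrays.

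Within slide 2 alone the interaction called 582 genes (4.44%), 298 of them higher and 284 lower in ERRα-/- than in ERRα+/+ cells. Each group then holds 2 arrays. Its ERRα+/+ PBS level came only from replicates 2 and 3, the arrays with the most variable repeated spots (11.6% and 7.83%). On slide 1, whose arrays this fit did not use, 82.0% of the 582 had the same sign of difference, against 60.9% of all tested genes. The 582 were selected by their difference and the tested genes were not, so the shares are not like for like. Whether a genotype effect recurs on slide 1 was not tested. Of the 10 genes with the smallest interaction p over both slides 8 passed within slide 2, and as the same slide 2 arrays enter both fits this is no independent support.

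Pgm5, a phosphoglucomutase-like gene, had the smallest interaction p. It read -3.28, -3.85 and -3.48 under PBS and -1.88, -1.12 and -1.21 under LPS in ERRα-/- cells. In ERRα+/+ cells it read -1.85, -2.29 and -2.34 under PBS and -2.54, -2.12 and -2.29 under LPS. It thus rose by 2.14 ± 0.24 without ERRα and differed by -0.16 ± 0.24 with it, and the 2 PBS groups did not overlap. The immediate early factor gene Egr1 read -0.36, -0.72 and -0.71 and then 0.70, 0.72 and 0.55 in ERRα-/- cells, a rise of 1.25 ± 0.24, against -0.31 ± 0.24 in ERRα+/+ cells. Pmvk, the phosphomevalonate kinase gene of sterol synthesis, rose by 1.07 ± 0.14 against 0.12 ± 0.14. Asap1, a regulator of Arf GTPases, went the other way, with 0.43 ± 0.17 against 1.53 ± 0.17. Its difference in ERRα-/- cells was not called in the main fit, and was called with the replicate block (limma, adjusted p = 0.045). Rnf24 too responded less without ERRα, with 2.41 ± 0.13 against 3.32 ± 0.13. The adjusted p of the interaction was 0.578 for Pgm5, so none of these differences passed over both slides.

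Among the leading mediators both genotypes are set side by side. Acod1 rose by 9.20 ± 0.75 without ERRα and by 11.57 ± 0.75 with it (interaction -2.37 ± 1.06, adjusted p = 1), and its ERRα+/+ PBS arrays read -2.09, -1.59 and -2.01. Tnf rose by 6.91 and 7.56. Ccl7 rose by 7.28 ± 1.07 against 4.65 ± 1.07, a difference that was called within slide 2 (adjusted p = 0.00627) but not over both slides. Gcnt1 changed by -4.59 ± 0.21 against -3.43 ± 0.21 and was also called within slide 2 alone (adjusted p = 0.0138).

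**Figure D5:**
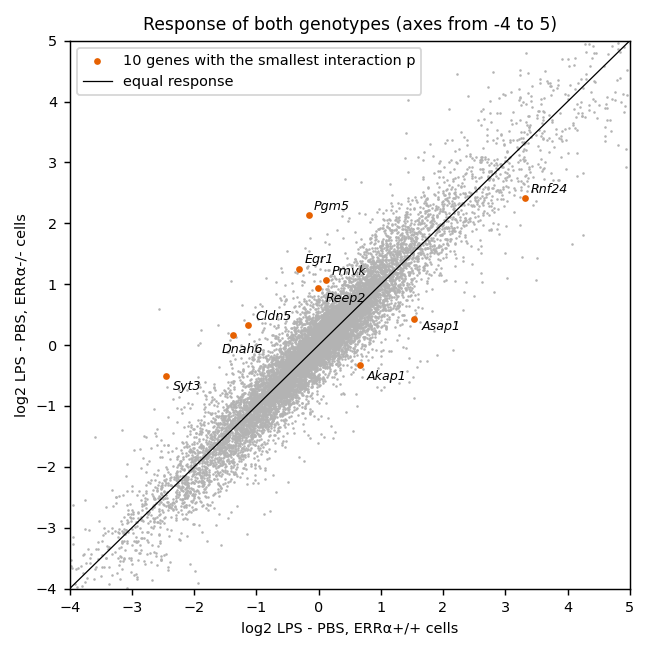
LPS minus PBS difference (log2) of each tested gene in ERRα+/+ cells (horizontal) and ERRα-/- cells (vertical), with both axes cut to -4 to 5, so that larger responses are not shown. The line marks equal response and the 10 genes with the smallest interaction p are orange. None of them passed the adjusted threshold over both slides.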

How the data were processed

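RNA extraction used Trizol and Cy3 was the 1 dye, per the labels. The intensity values, as deposited, came per the file headers from Agilent Feature Extraction 11.5.1.1 (9.3.2.1 per the submitters' processing notes) on 1 array design, with a processed signal already background-subtracted within each array; the deposited flags served as other columns. The authors' deposited table held the same processed signal. Control spots and 111 to 230 outlier spots per array were left out, spots of a probe were averaged, and log2 values were centred on the array's 75th percentile (signal 340 to 701). Of 20883 named genes (27503 probes with 1 gene name, 28178 without) the 13115 with a probe well above background on all 3 arrays of a group were tested, by their brightest probe. limma 3.58.1 (R 4.3.3) fitted 1 mean per group over 12 arrays with empirical Bayes; the fit was tested on simulated data.

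Same-numbered samples deviated together (correlations 0.143 to 0.784, between ERRα-/- PBS and LPS 0.369, 0.204 and 0.311). Unlike-numbered ERRα-/- samples of slide 2 did so too (PBS 2 with LPS 3 0.294, PBS 3 with LPS 2 0.248). These values thus do not show pairing within slide 2. The main fit used no pairs or blocks. Replicate numbers served as pairs to compare directions and as a block in an alternative fit, replicate 1 being the other slide. Blocked values stand beside calls they change and counts they move by over 1.5 times. The members and gene lists were chosen with earlier results of these data known. Named were Esrra, the 15 largest rises and falls measured on all 6 arrays, the 10 rises and 5 falls with the largest bounds, 5 called and 1 uncalled gene per list, and 10 genes of the interaction; a few others are named as such or as markers. Alternatives changed the background, scaling, filter, probe, block, samples, threshold and each replicate. The number of arrays limits the precision.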

Additional observations from a re-analysis of the deposited data

How the results depend on the processing

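Over all alternatives run, the counts of rises and falls stayed within 1.5 times of 3266 and 3358, except with a size above 1 (log2) demanded as well, which left 1991 and 2236. Leaving out 1 array at a time gave 2446 to 3625 rises, 2707 to 3565 falls and 0 interaction calls. With the replicate number as a block 4206 genes rose and 4133 fell, with quantile normalization 2631 and 3946, and with only the 6 ERRα-/- arrays and a slide block, chosen after seeing the data, 4343 and 4172. The interaction called 582 genes on slide 2 alone and 1 with normexp. Signs turned in 5 genes that were small or not called, and the cause was not tested. Cxcl14 became -0.03103 with median scaling, -0.3508 with quantile normalization, -0.3029 on slide 2 and ranged from -0.5845 to 0.5441 with 1 array left out. Cox7a2 and Cox5b became -0.02837 and -0.196 with quantile normalization, Syt3 0.1803 with normexp, and Dnah6 ranged from -0.03234 to 0.3155 with 1 array left out. The replicate block and slide 2 alone kept all 243 called named genes, and 216 stayed called with each array left out. These fits share arrays with the main fit and are no independent support. Genes below background in a group have only bounds.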
